A study of Mus musculus with 12 samples.

Results

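A set of 10 genes of the major histocompatibility complex (MHC) class I pathway was followed through peri-infarct cortex of mice in a stroke study: the light chain gene B2m, the heavy chain genes H2-K1, H2-D1 and H2-T23, the peptide transporter and loading genes Tap1, Tap2 and Tapbp, the immunoproteasome genes Psmb8 and Psmb9, and the transactivator gene Nlrc5. They were chosen by name, with earlier results of these data known, and all 10 were present among the 25238 genes of the count table. ISP mice and Veh mice were male C57BL/6J mice 10 to 12 weeks old that underwent a 45 min occlusion of the middle cerebral artery. From day 1 after stroke, ISP mice were injected daily with ISP, a cell-permeable peptide directed at the receptor PTPσ, at 1 μg/g/day, and Veh mice received the vehicle, 5% DMSO in saline, in both cases for 14 days, by the labels and the methods of the study, although its results text names a scrambled peptide in place of the vehicle. RNA was sequenced from 1 mm punches of peri-infarct cortex. The series also holds 4 libraries labelled control, also of peri-infarct cortex by their labels, whose own surgery, treatment and day no source used here gives. Their records carry the same general treatment text as the others, occlusion with vehicle or ISP, so they cannot be taken as mice without stroke and were compared only under their label. Each group had 4 libraries, each from 1 mouse and named by its label: ISP 12, 14, 16 and 18, Veh 2, 6, 8 and 10, and control 19, 21, 36 and 38.

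MHC class I molecules display peptides from inside the cell on its surface, where CD8 T cells and natural killer cells inspect them. The proteasome cuts proteins into peptides, the TAP transporter carries these into the endoplasmic reticulum, and tapasin holds an empty class I molecule at the transporter until a peptide binds. Interferons raise the genes of this pathway together, in part through NLRC5, a protein that acts at class I promoters without binding DNA itself. In the healthy brain class I is low in most neurons, and microglia and endothelial cells are known to carry it.

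Members of the pathway lie in 3 places of the genome (GRCm38). Of the 10, 8 are on chromosome 17, in the mouse MHC region or at its edge: Tapbp (33915899 to 33929292), H2-K1 (33996017 to 34000347), Psmb9 (34181987 to 34187764), Tap1 (34187553 to 34197225), Psmb8 (34197721 to 34201454), Tap2 (34203527 to 34216321), H2-D1 (35262730 to 35267499) and H2-T23 (36029773 to 36032855). B2m is on chromosome 2 (122147686 to 122153083) and Nlrc5 on chromosome 8 (94434356 to 94527272). Psmb9 and Tap1 are read in opposite directions, and in this annotation (GENCODE M21) 212 bases of their exons overlap.

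Promoters, taken from RefSeq (GRCm38.p6) as the 250 bases before to 50 bases after each start, were at hand for 8 of the 10 genes. The promoters of B2m and of the classical heavy chains H2-K1 and H2-D1 are shown because they share an arrangement of short motifs. Each run reads 5′ to 3′ on the strand of its gene, placed by the RefSeq start, which for H2-D1 lies inside the gene span given above. Capitals mark TGACG (the core of the X2 box, bound by the CREB and ATF family), ATTGG (the Y box, CCAAT on the other strand, bound by NF-Y), the paired half-sites of interferon regulatory factors (GAANNGAAA or GAAANNGAA on either strand) and an NF-κB-like site (GGGNNTTNC on either strand).
B2m (chr2:122147533-122147653, plus strand): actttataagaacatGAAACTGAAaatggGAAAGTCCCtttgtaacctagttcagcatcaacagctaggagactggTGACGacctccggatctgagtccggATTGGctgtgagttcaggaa
H2-K1 (chr17:34000344-34000473, minus strand): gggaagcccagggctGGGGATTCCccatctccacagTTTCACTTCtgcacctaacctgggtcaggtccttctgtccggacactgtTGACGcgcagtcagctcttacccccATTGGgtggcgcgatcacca
H2-D1 (chr17:35262908-35263037, plus strand): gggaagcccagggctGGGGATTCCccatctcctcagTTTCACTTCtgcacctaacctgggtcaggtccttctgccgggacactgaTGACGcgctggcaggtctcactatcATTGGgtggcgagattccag
In all 3 genes, TGACG was followed by ATTGG with 20 bases between them, an order and spacing found in 0.0962% of the 27025 promoters of the same length. With 18 to 22 bases between the same letters the share was 0.289%, and of the 8 genes only these 3 matched. GAANNGAAA was present in H2-K1 and H2-D1 (7.56% of all promoters), GAAANNGAA in B2m and H2-T23 (8.57%), and GGGNNTTNC in B2m, H2-K1 and H2-D1 (15.1%). The letters were chosen after these sequences had been read, GAAANNGAA after B2m held no match to GAANNGAAA, so the matches describe these windows only. TGACG alone was present in 5 of the 8 (21% of all promoters) and CCAAT on either strand in 7 of the 8 (37.9%).

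By the RefSeq starts, which differ from the GENCODE ones, Tap1 and Psmb9 begin 226 bases apart with a shared stretch between them. It is shown from the Psmb9 start to the Tap1 start, on the strand of Tap1, with TGACG and CCAAT in capitals.
Tap1 (chr17:34187330-34187556, plus strand): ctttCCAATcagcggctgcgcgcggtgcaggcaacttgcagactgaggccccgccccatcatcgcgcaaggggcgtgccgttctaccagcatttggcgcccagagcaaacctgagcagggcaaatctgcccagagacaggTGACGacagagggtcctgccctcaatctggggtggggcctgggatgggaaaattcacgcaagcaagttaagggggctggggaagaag
The CCAAT at its left end lies within 8 bases of the Psmb9 start, and read from Psmb9 it is ATTGG.

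Total counts were 19325979 to 28685864 in ISP, 17442711 to 24706638 in Veh and 21322702 to 29845629 in control libraries. Levels are given as counts scaled to a library total of 1000000 (CPM) after TMM scaling over all 12 libraries, which corrects for differences in total and composition. Cortical neuron markers summed to 2397 to 2904 CPM in ISP, 2545 to 3254 CPM in Veh and 2686 to 3051 CPM in control libraries, so the labelled tissue was present in all 12. ISP 14 and ISP 18 stood apart from ISP 12 and ISP 16 in nearly everything that follows, and Veh 10 stood above the other Veh mice. These mice were known to stand apart from earlier results of these data, and comparisons with ISP are therefore given with and without ISP 14 and ISP 18.

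B2m, the light chain that every class I molecule needs, was the most abundant of the 10. It had 143, 493, 113 and 383 CPM in ISP 12, 14, 16 and 18, against 128, 91.0, 96.2 and 203 CPM in Veh 2, 6, 8 and 10 and 89.9, 78.3, 72.9 and 71.3 CPM in control 19, 21, 36 and 38. ISP 14 and ISP 18 were above all other mice, ISP 12 and ISP 16 lay among the Veh mice, and every ISP and Veh mouse was above every control mouse. Group means were 283 ± 185 CPM in ISP, 130 ± 51.4 CPM in Veh and 78.1 ± 8.41 CPM in control mice (SD, n = 4 each). In bulk tissue such a difference cannot be told apart into more cells of a type and more RNA per cell.

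The classical heavy chains H2-K1 and H2-D1, which present peptides to CD8 T cells, were high in the same mice. H2-K1 had 52.3, 241, 39.2 and 193 CPM in ISP 12, 14, 16 and 18, against 46.5, 31.1, 33.8 and 88.8 CPM in Veh 2, 6, 8 and 10 and 22.7, 20.3, 19.4 and 22.3 CPM in control 19, 21, 36 and 38. H2-D1 was lower, with 21.5, 104, 17.4 and 79.1 CPM in the ISP mice, 22.1, 15.7, 16.0 and 33.7 CPM in the Veh mice and 14.0, 11.1, 11.4 and 12.2 CPM in the control mice. For both genes ISP and Veh overlapped, and neither overlapped with control. H2-T23, which encodes the nonclassical chain Qa-1 read by natural killer cell receptors, varied less. It had 38.5, 62.2, 26.4 and 57.3 CPM in the ISP mice, 37.3, 35.5, 31.5 and 28.5 CPM in the Veh mice and 31.8, 25.9, 37.9 and 24.5 CPM in the control mice. Its 3 groups overlapped one another, although ISP 14 and ISP 18 were again the highest.

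Tap1 and Tap2 encode the subunits of the peptide transporter. Tap1 had 3.97, 19.5, 3.62 and 15.5 CPM in the ISP mice, 5.34, 2.97, 3.81 and 8.11 CPM in the Veh mice and 1.78, 1.71, 2.21 and 3.41 CPM in the control mice. Every ISP mouse was above every control mouse, and 3 of 4 Veh mice were. Tap2 had 12.2, 23.5, 11.8 and 23.2 CPM in the ISP mice, 16.4, 11.0, 10.7 and 17.4 CPM in the Veh mice and 10.6, 8.70, 7.65 and 9.84 CPM in the control mice. Neither ISP nor Veh overlapped with control for Tap2, but Veh 8 was within 0.1 CPM of control 19. Tapbp, the gene of tapasin, had 42.9, 61.9, 35.7 and 71.1 CPM in the ISP mice, 37.3, 40.2, 29.2 and 49.2 CPM in the Veh mice and 33.8, 26.5, 26.0 and 32.1 CPM in the control mice. Here too all ISP mice exceeded all control mice, while Veh 8 lay within the control range.

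Psmb8 and Psmb9 encode the catalytic subunits LMP7 and LMP2, which replace PSMB5 and PSMB6 in the immunoproteasome. Psmb8 had 3.81, 21.2, 2.90 and 18.1 CPM in the ISP mice, 5.70, 2.85, 1.63 and 7.97 CPM in the Veh mice and 3.09, 2.19, 2.12 and 1.89 CPM in the control mice. ISP 16 lay below control 19, so ISP and control overlapped by this single mouse. Psmb9 had 3.71, 6.53, 1.40 and 6.17 CPM in the ISP mice, 3.68, 1.53, 0.998 and 3.63 CPM in the Veh mice and 1.13, 0.986, 1.15 and 0.710 CPM in the control mice. All ISP mice were above all control mice, and for Psmb9 ISP 12 also exceeded every Veh mouse, by under 0.1 CPM over Veh 2.

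Nlrc5 was the least abundant and the most spread of the 10. It had 1.44, 5.84, 1.45 and 7.39 CPM in the ISP mice, 1.54, 1.12, 0.0454 and 1.84 CPM in the Veh mice and 0.617, 1.07, 0.510 and 0.379 CPM in the control mice. The value of Veh 8 rests on 1 read. ISP did not overlap with control, and Veh overlapped with both.

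**Figure D1:**
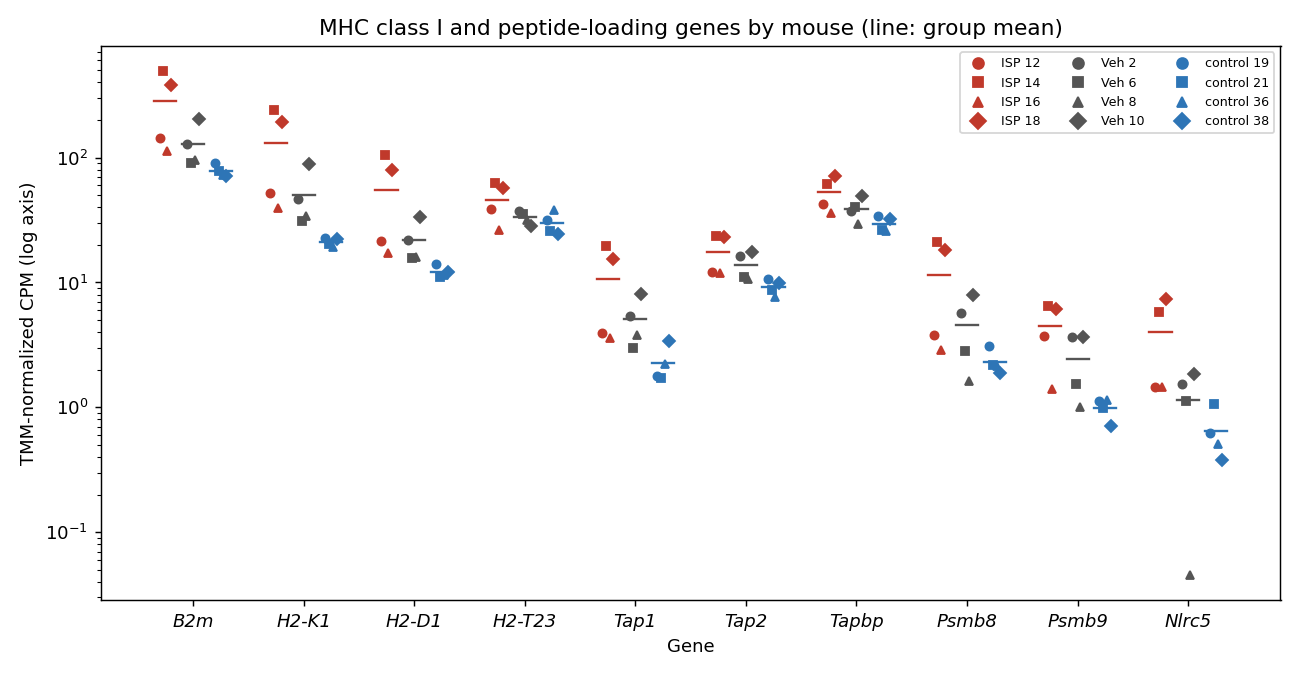
TMM-normalized CPM (log axis) of the 10 genes in each mouse, with ISP in red, Veh in grey and control in blue, 1 symbol per mouse and a line at each group mean (n = 4). ISP 14 (square) and ISP 18 (diamond) sit above ISP 12 and ISP 16 for all 10 genes, and Veh 10 (grey diamond) is the highest Veh mouse for 8 of them.

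Genes were also compared per kilobase of exon (RPKM), with the exons of all annotated transcripts of a gene joined. This length was 860 bases for B2m, 3381 for Psmb8 and 3660 for Psmb9, so the order by RPKM depends on the annotation. B2m stood at 329 ± 215 RPKM in ISP, 151 ± 59.8 RPKM in Veh and 90.8 ± 9.78 RPKM in control mice. H2-K1 followed with 44.8 ± 34.4 RPKM in ISP mice, 17.03 ± 9.08 RPKM in Veh mice and 7.21 ± 0.541 RPKM in control mice, and H2-D1 with 21.5 ± 16.6 RPKM in ISP, 8.48 ± 3.27 RPKM in Veh and 4.72 ± 0.502 RPKM in control mice. In control mice the order of RPKM below B2m was H2-T23 (10.4 ± 2.14), Tapbp (8.16 ± 1.08), H2-K1, H2-D1, Tap2 (2.43 ± 0.343), Psmb8 (0.687 ± 0.155), Tap1 (0.416 ± 0.143), Psmb9 (0.271 ± 0.0554) and Nlrc5 (0.0759 ± 0.0355). H2-T23 and Tapbp, and likewise Tapbp and H2-K1, were closer than the sum of their SDs in control mice, as were Psmb8 and Tap1, and Tap1 and Psmb9. In ISP mice H2-K1 stood first below B2m, above H2-D1, H2-T23 (16.0 ± 5.75 RPKM) and Tapbp (14.6 ± 4.53 RPKM), with spreads that overlap.

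Ratios within a mouse do not depend on its depth and showed how unevenly the genes differed. H2-K1 over H2-D1, per length, was 1.98 to 2.14 in ISP, 1.74 to 2.31 in Veh and 1.42 to 1.61 in control mice, so all 8 ISP and Veh mice were above the 4 control mice. H2-K1 over B2m was 0.101 to 0.148 in ISP, 0.1001 to 0.128 in Veh and 0.0740 to 0.0915 in control mice, again without overlap against control. H2-T23 over H2-K1 was 0.262 to 0.749 in ISP, 0.326 to 1.16 in Veh and 1.12 to 1.99 in control mice, lower in every ISP mouse than in any control mouse and overlapping between Veh and control. Tap1 over Tap2 was 0.211 to 0.574 in ISP, 0.186 to 0.322 in Veh and 0.116 to 0.239 in control mice, and these ranges overlapped.

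Psmb8 and Psmb9 stayed below the constitutive subunits they replace. How far below depends on the length used. By CPM alone, ISP 14 had 21.2 CPM of Psmb8 beside 52.5 CPM of Psmb5, and 6.53 CPM of Psmb9 beside 66.8 CPM of Psmb6. Per length, Psmb8 over Psmb5 was 0.0184, 0.107, 0.0134 and 0.0813 in ISP 12, 14, 16 and 18, against 0.0199, 0.0115, 0.00634 and 0.0369 in the Veh mice and 0.00985, 0.0106, 0.00875 and 0.00766 in the control mice. Psmb9 over Psmb6 was 0.0270, 0.05005, 0.0107 and 0.0456 in the ISP mice, 0.0209, 0.0114, 0.00722 and 0.0282 in the Veh mice and 0.00708, 0.00888, 0.00905 and 0.00507 in the control mice. For both ratios all ISP mice were above all control mice.

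The comparison of treatments after stroke, ISP against Veh, gave no call for any of the 10 genes. Each gene's log2 fold change was positive, and the median of the 10 was 1.11 against 0.02 over all 15214 genes tested. Calls were made with edgeR's quasi-likelihood test on the 8 libraries, at a Benjamini-Hochberg adjusted p under 0.1 over all genes tested. By that rule 0 of the 10 genes were called, beside 0.00% of all genes called higher. DESeq2 called 0 of the 10, beside 1.12% of all genes, and at an unadjusted edgeR p under 0.05, 4 of the 10 were higher (B2m, H2-D1, H2-K1 and Nlrc5), beside 7.87% of all genes. In no member was every ISP mouse above every Veh mouse, an arrangement that 2.80% of the tested genes showed.

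Nlrc5 had a log2 fold change of 1.84 (SE 0.75, edgeR adjusted p 0.294) for ISP against Veh. The classical heavy chains followed, H2-K1 with 1.40 (SE 0.54, adjusted p 0.284) and H2-D1 with 1.35 (SE 0.51, adjusted p 0.277), and B2m had 1.13 (SE 0.43, adjusted p 0.278). Psmb8 had 1.35 (SE 0.64), Tap1 1.09 (SE 0.53) and Psmb9 0.87 (SE 0.51), with edgeR adjusted p-values of 0.340, 0.350 and 0.428. The values of H2-T23 (0.48, SE 0.22), Tapbp (0.44, SE 0.21) and Tap2 (0.36, SE 0.26) were below 0.5 on the log2 scale, with adjusted p-values of 0.334, 0.343 and 0.529. These values depended on ISP 14 and ISP 18, the highest mice for all 10 genes, so lower values without them were bound to follow. Without these mice the median log2 fold change was -0.08, and the sign turned for 7 of the 10, among them B2m (-0.02), H2-K1 (-0.13), H2-D1 (-0.17), Tap1 (-0.41) and Psmb8 (-0.43). Nlrc5 (0.35), Psmb9 (0.06) and Tapbp (0.01) stayed positive. Without Veh 10 as well, a choice made with earlier results known, the median was 0.13.

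All 10 log2 fold changes were positive for Veh against control as well. Of the 10 genes edgeR called H2-K1 and H2-D1 higher in Veh, 2 of 10 beside 1.03% of the 15126 genes tested. H2-K1 had a log2 fold change of 1.25 (SE 0.27, edgeR adjusted p 0.0746) and H2-D1 of 0.85 (SE 0.22, adjusted p 0.0949). B2m, at 0.74 (SE 0.21, adjusted p 0.110), Tap1, at 1.16 (SE 0.34, adjusted p 0.124), and Tap2, at 0.60 (SE 0.18, adjusted p 0.143), missed the threshold. DESeq2 called 5 of 10 (H2-K1, H2-D1, Tap1, Tap2 and Psmb9), beside 2.84% of all genes, and 8 of 10 had an unadjusted edgeR p under 0.05, beside 8.10%. The 4 genes with every Veh mouse above every control mouse were B2m, H2-K1, H2-D1 and Tap2, an arrangement in 4.28% of genes tested. Psmb9 (1.29, SE 0.43, adjusted p 0.165), Psmb8 (0.96, SE 0.41, adjusted p 0.264), Nlrc5 (0.81, SE 0.66, adjusted p 0.595), Tapbp (0.41, SE 0.15, adjusted p 0.196) and H2-T23 (0.15, SE 0.14, adjusted p 0.645) were not called. The median of the 10 was 0.83, against 0.02 over all genes tested. Both calls were lost when Veh 2, control 21, control 36 or control 38 was left out, with adjusted p-values of 0.135 to 0.227, and H2-D1 alone was lost without Veh 10 (0.143).

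ISP against control gave calls for 9 of the 10 genes, all higher in ISP, beside 6.74% of the 15232 genes tested. The largest fold changes were those of Nlrc5, with a log2 fold change of 2.64 (SE 0.58, edgeR adjusted p 0.0313), and H2-K1, also 2.64 (SE 0.48, adjusted p 0.0221). Psmb8 rose by 2.30 (SE 0.56, adjusted p 0.0410), Tap1 by 2.24 (SE 0.52, adjusted p 0.0361), H2-D1 by 2.19 (SE 0.48, adjusted p 0.0305) and Psmb9 by 2.16 (SE 0.44, adjusted p 0.0275). B2m rose by 1.86 (SE 0.38, adjusted p 0.0275), and the rises of Tap2 (0.94, SE 0.24, adjusted p 0.0454) and Tapbp (0.84, SE 0.19, adjusted p 0.0361) were smaller. H2-T23 had 0.62 (SE 0.23) and was not called (adjusted p 0.145), though without ISP 16 it was (0.0163). DESeq2 called 10 of 10, beside 8.63% of all genes, 10 of 10 had an unadjusted edgeR p under 0.05, beside 12.3%, and in 8 of 10 every ISP mouse was above every control mouse, beside 7.14%. The median of the 10 was 2.17, against -0.01 over all genes tested. Both comparisons with control use the same 4 control mice, and the calls of one are no support for the other.

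The size of these differences from control depended on ISP 14 and ISP 18. Without them, B2m (0.71, adjusted p 0.0403) and H2-K1 (1.11, adjusted p 0.00829) were still called by edgeR, and the other 8 were not. Psmb9 then had 1.35 (adjusted p 0.340), Nlrc5 1.16 (adjusted p 0.485), Tap1 0.74 (adjusted p 0.486) and H2-D1 0.67 (adjusted p 0.118). The median of the 10 was then 0.69. With ISP 14 alone left out, B2m, H2-K1, H2-D1, Psmb9 and Nlrc5 were called, and H2-T23, Tap1, Tap2, Tapbp and Psmb8 were not. Tap2 and Psmb8 were also not called without ISP 18, control 36 or control 38, with adjusted p-values of 0.101 to 0.121. With limma-voom, Tap1 (adjusted p 0.1004) and Psmb8 (adjusted p 0.122) were not called.

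**Figure D2:**
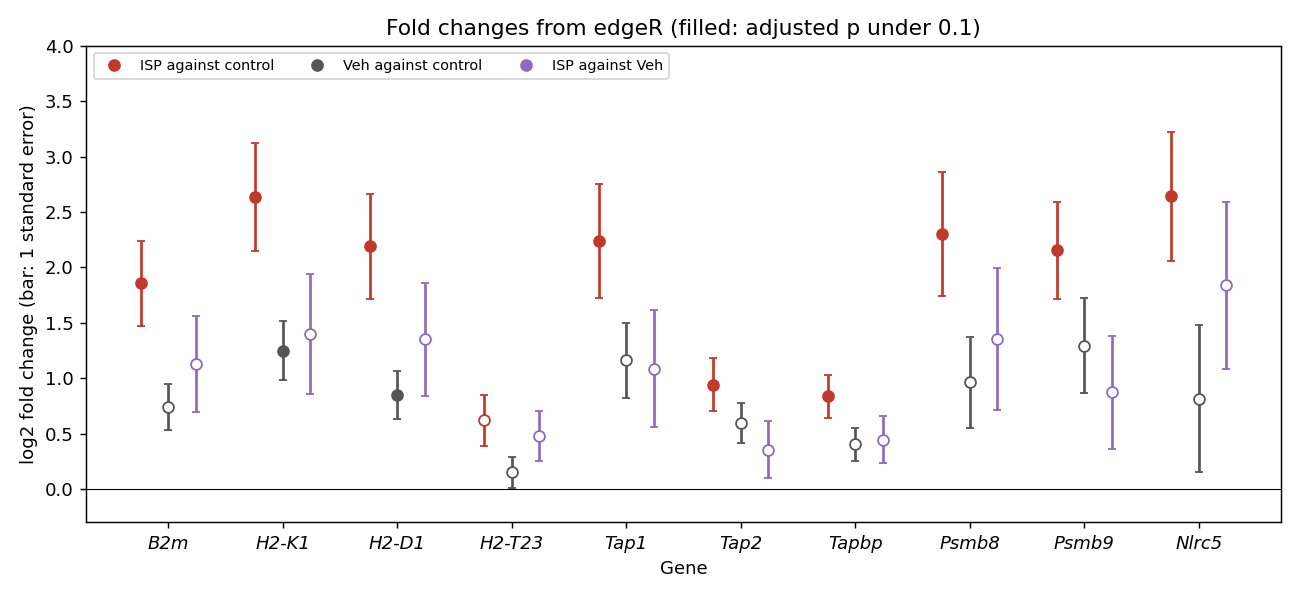
Log2 fold change of each gene (bars, 1 standard error) from edgeR for ISP against control (red), Veh against control (grey) and ISP against Veh (violet), with filled points where the adjusted p was under 0.1. In the plot 9 red points are filled, 2 grey points (H2-K1 and H2-D1) and no violet point.

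**Figure D3:**
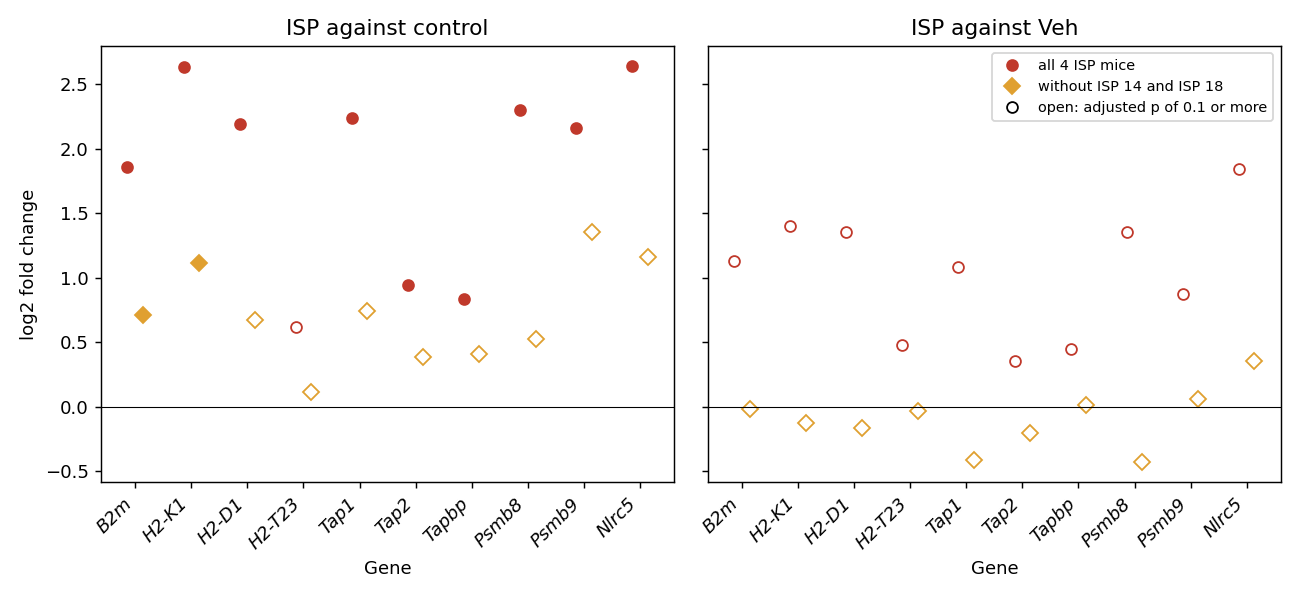
Log2 fold change of each gene for ISP against control (left) and ISP against Veh (right), with all 4 ISP mice (red circles) and without ISP 14 and ISP 18 (orange diamonds), filled where the edgeR adjusted p was under 0.1. Against Veh the orange points gather around 0, with a median of -0.08, and against control they stay above 0, with a median of 0.69.

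The 10 genes were next reduced to 1 profile, the mean over genes of log2(CPM + 0.5) after each gene was centred on its mean over the 12 mice. This profile was 1.63 for mouse ISP 14, 1.498 for ISP 18, 0.10 for ISP 12 and -0.25 for ISP 16. In Veh mice it was 0.53 (Veh 10), 0.19 (Veh 2), -0.32 (Veh 6) and -0.60 (Veh 8), and in control mice -0.57 to -0.74. All 10 genes were above their own mean in ISP 14 and in ISP 18, and 9 of 10 were in Veh 10, H2-T23 being the exception (-0.29). ISP 14 was the highest mouse for 8 genes and ISP 18 for Tapbp and Nlrc5. Each gene was also set against the mean centred profile of the other 9. B2m followed it most closely, with a root mean square difference of 0.15 over 12 mice, and H2-T23 least closely, with 0.59.

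Of 13505 other genes with a mean of at least 1 CPM, the nearest to this mean by centred profile over the 12 mice included Apobec3 (root mean square difference 0.13), Lyn (0.14), Unc93b1 (0.14), Laptm5 (0.14), Plek (0.15), Fyb (0.17) and Pld4 (0.17), where the median over all these genes was 0.83. Apobec3 encodes a cytidine deaminase that restricts retroviruses, Lyn a Src-family kinase of myeloid and B cells and Unc93b1 the chaperone of endosomal Toll-like receptors. Laptm5, the most abundant of these 7, averaged 126 CPM in ISP, 63.0 CPM in Veh and 40.2 CPM in control mice.

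Microglia markers moved with the same mice. The 9 markers of homeostatic microglia used (Tmem119, P2ry12, Cx3cr1, Sall1, Gpr34, Siglech, Csf1r, Olfml3 and P2ry13) summed to 316 to 732 CPM in ISP, 277 to 433 CPM in Veh and 212 to 247 CPM in control mice, and none was at 0. ISP 14 (732 CPM) and ISP 18 (708 CPM) were the highest, and Veh 10 (433 CPM) came next. By edgeR 0 of the 9 were called for ISP against Veh (0 by DESeq2, and 4 at an unadjusted p under 0.05), 4 were higher for Veh against control and 8 for ISP against control, with median log2 fold changes of 0.67, 0.51 and 1.02. Over all genes edgeR called 0.00%, 1.03% and 6.74% higher, in the same order. At an unadjusted edgeR p under 0.05, 7.87% of all genes were higher for ISP against Veh. Per 100 CPM of these markers, H2-K1 was at 15.4, 33.0, 12.4 and 27.3 CPM in ISP 12, 14, 16 and 18, against 14.7, 10.9, 12.2 and 20.5 CPM in the Veh mice and 9.21, 8.99, 8.62 and 10.5 CPM in the control mice. On this scale too H2-K1 was above control in all 8 ISP and Veh mice. The margin was narrow, with the lowest Veh mouse at 10.9 CPM and the highest control mouse at 10.5 CPM. H2-T23 went the other way against control. It was at 8.09 to 11.37 CPM in ISP, 6.58 to 12.4 CPM in Veh and 11.44 to 16.9 CPM in control mice, lower in every ISP mouse than in any control mouse. The share of all genes with such arrangements was not computed on this scale. They are therefore not read as a result about H2-K1 or H2-T23. B2m, on the same scale, was at 35.8 to 67.3 CPM in ISP, 31.8 to 46.8 CPM in Veh and 32.4 to 36.5 CPM in control mice, and Tapbp was at 8.46 to 12.6 CPM in ISP, 10.5 to 14.0 CPM in Veh and 11.6 to 15.1 CPM in control mice. The ranges of B2m and Tapbp overlapped between groups, and the part of microglia in the differences of the 10 genes was not tested.

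**Figure D4:**
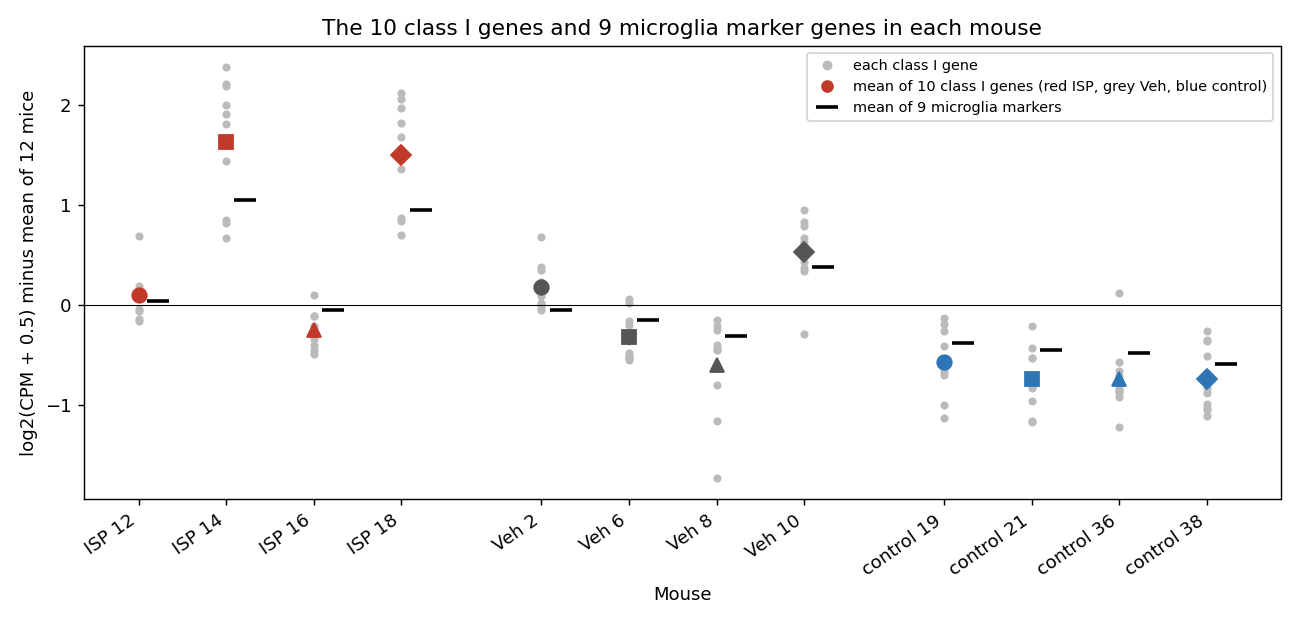
Log2(CPM + 0.5) minus the mean of the 12 mice, for each of the 10 class I genes (light grey dots), their mean (coloured symbols, ISP red, Veh grey, control blue) and the mean of 9 microglia markers (black bars). Both means are highest in ISP 14 and ISP 18, then in Veh 10, and lie below 0 in all 4 control mice.

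Other cells were looked for by their markers. The 6 astrocyte markers summed to 1862 to 4170 CPM in ISP, 1645 to 2571 CPM in Veh and 1320 to 1530 CPM in control mice, highest in ISP 18 (4170 CPM) and ISP 14 (3214 CPM). Much of this difference lay in Gfap, with 525, 1289, 291 and 2393 CPM in ISP 12, 14, 16 and 18. Gfap had 119 to 647 CPM in Veh and 24.6 to 31.4 CPM in control mice. Aldoc overlapped between the groups, at 828 to 932 CPM in ISP, 807 to 1122 CPM in Veh and 751 to 959 CPM in control mice. The 6 oligodendrocyte markers summed to 4484 to 10895 CPM in ISP, 2649 to 6681 CPM in Veh and 3104 to 4713 CPM in control mice. Of the astrocyte markers edgeR called 0 of 6 for ISP against Veh (2 higher at an unadjusted p under 0.05, 0 by DESeq2), 1 higher for Veh against control and 4 higher for ISP against control. Of the oligodendrocyte markers it called 0 of 6 for ISP against Veh (4 higher at an unadjusted p under 0.05, 0 by DESeq2), 0 for Veh against control (0 at an unadjusted p under 0.05, 0 by DESeq2) and 5 higher for ISP against control. Over all genes edgeR called 0.00%, 1.03% and 6.74% higher, in the same order. At an unadjusted edgeR p under 0.05, 7.87% of all genes were higher for ISP against Veh and 8.10% for Veh against control. The 9 markers of monocytes and border macrophages summed to 4.84 to 13.4 CPM in ISP, 3.37 to 23.5 CPM in Veh and 3.31 to 5.23 CPM in control mice, with the highest value in Veh 10. That value came mostly from Mrc1 (8.11 CPM), F13a1 (7.03 CPM) and Cd163 (3.25 CPM), while Ms4a7 was highest in ISP 14 (3.33 CPM). Of the genes with enough reads, edgeR called 0 in any comparison. At an unadjusted edgeR p under 0.05, 3 were higher, all for Veh against control. DESeq2 called 3 higher, all for ISP against control. T and natural killer cell markers (11 in the table) summed to 2.06 to 7.70 CPM in ISP, 0.763 to 3.91 CPM in Veh and 0.857 to 2.50 CPM in control mice. This list was also highest in ISP 14 (7.52 CPM) and ISP 18 (7.70 CPM), with 2.06 and 2.65 CPM in ISP 12 and ISP 16. Only 2 of its genes had enough reads for edgeR, which called 0 in any comparison (0 at an unadjusted p under 0.05). DESeq2 called 1 higher for ISP against Veh, 0 for Veh against control and 3 for ISP against control, beside 1.12%, 2.84% and 8.63% of all genes. Several genes of this list and of the monocyte list had almost no reads in control mice, and Gzmb and Ncr1 had none in Veh or control mice. Such genes are tested only through reads in the other group, so the DESeq2 calls of both lists are not read as support. The B cell and neutrophil lists stayed below 2 CPM in every mouse, with the neutrophil gene Ly6g at 0 in all 12. Endothelial markers (8 genes) lay at 220 to 250 CPM in ISP, 245 to 286 CPM in Veh and 220 to 247 CPM in control mice. The part of these cells in the class I differences was not tested.

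Beyond the 3 heavy chains above, 14 further class I heavy chain genes were in the table and 8 of them were tested for ISP against control. Of these, edgeR called H2-Q4 and H2-Q6 higher and none lower, beside 6.74% of all genes called higher. However, H2-Q6 was tested only because of its reads in ISP mice, and its call is no support. H2-Q4 had 8.66, 34.1, 6.22 and 31.3 CPM in the ISP mice, 6.77, 4.74, 4.76 and 12.5 CPM in the Veh mice and 3.05, 2.66, 4.16 and 3.22 CPM in the control mice, a log2 fold change of 2.62 for ISP against control (SE 0.49, adjusted p 0.0223). Neither ISP nor Veh overlapped with control, and ISP overlapped with Veh. H2-Q6 had 2.68, 13.03, 1.01 and 8.11 CPM in the ISP mice and 1.31, 0.482, 0.363 and 4.20 CPM in the Veh mice, while control 19 and control 36 were at 0 and control 21 and control 38 at 0.257 and 0.0473 CPM. A count of 0 allows up to 0.101 CPM in control 19 and 0.127 CPM in control 36 (3 reads, counting error only), so no fold change is given. H2-T10 (0.57, SE 0.41, adjusted p 0.452) and H2-T22 (0.20, SE 0.18, adjusted p 0.555) were not called, and H2-Q7 was at 0 in all 12 libraries. Reads shared between heavy chain genes of near-identical sequence could be lost in counting. Of the 100-base stretches of its transcripts, 3.59% of those of H2-D1, 0.957% of those of H2-K1 and 3.15% of those of H2-T23 also occur in another gene.

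Class I-like proteins fold as class I does, and some of them carry other cargo. For ISP against control 3 of the 5 tested were called higher, beside 6.74% of all genes. They were Mr1, which presents vitamin B metabolites (1.28, SE 0.22, edgeR adjusted p 0.0205), Hfe, a regulator of iron uptake (1.22, SE 0.33, adjusted p 0.0575), and Cd1d1, which presents lipids (1.59, SE 0.51, adjusted p 0.0943). Cd1d1 had too few reads to be tested for Veh against control and entered the test only through the ISP mice, so its call is not read as support. Mr1 had 5.98, 6.12, 4.92 and 7.29 CPM in the ISP mice, 3.38, 5.18, 3.18 and 5.33 CPM in the Veh mice and 2.26, 3.13, 2.34 and 2.27 CPM in the control mice. Mr1 was about as high in ISP 12 as in ISP 14.

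The general machinery around class I gave few calls. Over all genes tested edgeR called 0.00% higher for ISP against Veh, 1.03% for Veh against control and 6.74% for ISP against control. DESeq2 called 1.12%, 2.84% and 8.63% higher, in the same order. Lower calls by edgeR numbered 181 of 15126 for Veh against control and 521 of 15232 for ISP against control. Next to these shares, 0 calls among 11 or 14 genes is not read as a result about them. Of 11 chaperones and peptidases of peptide loading, including Calr, Canx and Pdia3, 0 were called higher in any comparison, by edgeR or by DESeq2, and 1 (Erap1) was higher at an unadjusted edgeR p under 0.05, for ISP against control. Lnpep, an aminopeptidase that trims peptides in endosomes, was the only one edgeR called lower (DESeq2 called 2 lower for Veh against control and 1 for ISP against control), with log2 fold changes of -0.88 for Veh against control (SE 0.17, edgeR adjusted p 0.0534) and -0.78 for ISP against control (SE 0.19, adjusted p 0.0395). It was at 11.9 to 17.9 CPM in ISP, 13.1 to 15.9 CPM in Veh and 19.2 to 36.5 CPM in control mice, without overlap against control. Erap1, the endoplasmic reticulum aminopeptidase, had 0.43 for ISP against control (SE 0.18, adjusted p 0.192). Of the immunoproteasome partners, Psme1, a subunit of the PA28 activator, was higher in Veh than in control (0.50, SE 0.12, adjusted p 0.0849) and in ISP than in control (0.47, SE 0.14, adjusted p 0.0728). Psmb10, the remaining immunoproteasome subunit, had -0.19 for ISP against control (SE 0.14, adjusted p 0.472) and 39.6 ± 3.92 CPM in ISP, 45.5 ± 4.89 CPM in Veh and 44.9 ± 9.18 CPM in control mice. The 14 genes of the constitutive core gave 0 calls by edgeR in all 3 comparisons, with median log2 fold changes of -0.15 for ISP against Veh, 0.11 for Veh against control and -0.05 for ISP against control. At an unadjusted p under 0.05, 2 of them were lower for ISP against Veh, 0 changed for Veh against control and 2 were lower for ISP against control, and DESeq2 called 1 lower for ISP against control alone.

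Among the 21 regulators of the pathway used, 0 were called by edgeR for ISP against Veh, beside 0.00% of all genes called higher. In that comparison 7 were higher at an unadjusted edgeR p under 0.05, beside 7.87% of all genes. DESeq2 called 1 higher there, beside 1.12%. Over all genes edgeR called 1.03% higher for Veh against control and 6.74% for ISP against control. For Veh against control Irf8 was called higher (1.21, SE 0.24, adjusted p 0.0678), and for ISP against control 6 were: Irf8 (2.56, SE 0.49, adjusted p 0.0254), Irf9 (1.19, SE 0.27, adjusted p 0.0345), Ifngr1 (0.88, SE 0.23, adjusted p 0.0502), Irf1 (1.05, SE 0.29, adjusted p 0.0592) and, to complete the count, Nfkb1 and Ifnar2. Irf9 carries interferon signals to the nucleus, Ifngr1 is a receptor chain for interferon-γ, and Irf8 is a factor of microglia and other myeloid cells. Irf8 had 7.68, 33.9, 7.77 and 37.7 CPM in the ISP mice, 7.77, 6.22, 7.53 and 12.5 CPM in the Veh mice and 4.32, 3.26, 2.93 and 4.31 CPM in the control mice. ISP 18 and ISP 14 were the highest mice, and neither ISP nor Veh overlapped with control. Of the parts of the complexes that bind the X and Y boxes, Rfx5, Rfxap, Rfxank, Nfya, Nfyb and Nfyc, none was called by edgeR in any comparison. Nfya had 0.36 for ISP against Veh (SE 0.12, unadjusted p 0.0118, adjusted p 0.266) and 0.29 for ISP against control (SE 0.11, unadjusted p 0.0207, adjusted p 0.142), and Rfx5 had 0.28 for ISP against control (SE 0.11, unadjusted p 0.0285, adjusted p 0.167). Nfyb had -0.19 for ISP against control (SE 0.08, unadjusted p 0.0319, adjusted p 0.177).

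Interferon ligands themselves were at or near 0. Ifnb1, Ifna4, Ifna5, Ifnl2 and Ifnl3 had no read in any of the 12 libraries, where a count of 0 allows up to 0.101 to 0.172 CPM. Ifng was at 0.164 CPM in ISP 14 and at 0 in the other libraries, and Ifna2 at 0.0425 CPM in control 36 and at 0 in the other libraries. Of the receptors that read class I, Cd8a had 0, 0.616, 0.290 and 0.678 CPM in ISP 12, 14, 16 and 18, against 0.237, 0, 0 and 0.189 CPM in the Veh mice and 0, 0, 0.170 and 0 CPM in the control mice. Pirb, an inhibitory receptor that binds class I, had 0.309, 1.81, 0.0483 and 1.49 CPM in the ISP mice, 0.831, 0.522, 0.227 and 1.23 CPM in the Veh mice and 0.0686, 0.0857, 0.170 and 0.0946 CPM in the control mice. Both were highest in ISP 14 or ISP 18, and at these depths most values rest on few reads.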

How the data were processed

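RNA was sequenced from mouse cortex, 4 mice per group. The authors used HISAT2 for alignment to mm10 and HTSeq, with default parameters, for gene counts, which leaves out reads that fit several places or genes. Their versions, and whether the libraries kept strand, are not given in the sources used here. Raw counts make up the deposited table, and all of its sample columns were used. The 8 libraries of a comparison entered 1 fit with edgeR 4.0.16 under R 4.3.3 (filterByExpr, TMM, glmQLFit, glmQLFTest), with Benjamini-Hochberg adjustment over all genes tested and calls under 0.1. Standard errors are the log2 fold change divided by the square root of F. DESeq2 1.42.0 and limma-voom 3.58.1 were alternatives, with other scalings, filters, thresholds and left-out mice. The procedure was also run on simulated counts drawn gene by gene. These hold no mouse that stands apart in many genes at once, so the simulation does not bear on that feature of the data. A pseudocount of 0.5 CPM was used for profiles. Positions and exon lengths came from GENCODE M21 (GRCm38, the assembly of mm10) and promoters from RefSeq (GRCm38.p6). Exon lengths joined the exons of all annotated transcripts of a gene. Named genes were all 10 members, of other lists up to 4 tested genes with the smallest p or genes at 0, and the 8 nearest profiles. Genes named beyond this rule (Nfkb1, Ifnar2, Calr, Canx, Pdia3, Psmb10, Cd8a, Pirb, Rfx5, Rfxap, Rfxank, Nfya, Nfyb, Nfyc, Gzmb and Ncr1) were picked after values were seen. Members and lists were chosen with earlier results of these data known. Some items of the lists are not reported here and were left out of list counts and sums. P-values measure the spread between mice.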

Additional observations from a re-analysis of the deposited data

How the results depend on the processing

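For ISP against Veh, 0 of the 10 class I genes were called under any alternative run. DESeq2 called 184 genes higher and 217 lower there, against 0 and 0 by edgeR. Leaving out 1 mouse gave 0 to 30 higher by edgeR. The study, with DESeq2 and an added fold change limit, reports more genes higher than lower in ISP mice. The reason for this difference in balance was not tested. Without ISP 14 and ISP 18 the median of the 10 was -0.0801, and the log2 fold changes of B2m (-0.0164), H2-D1 (-0.17), H2-K1 (-0.13), H2-T23 (-0.0320), Tap1 (-0.41), Tap2 (-0.20) and Psmb8 (-0.43) turned negative. Without Veh 10 as well, an alternative added after earlier results were known, those of H2-T23 (-0.10), Tap1 (-0.0861), Tap2 (-0.0771) and Psmb8 (-0.0036) were negative. For Veh against control, members called were 5 with DESeq2, 1 with limma-voom, 0 with all 12 libraries in 1 fit, 0 at an adjusted p under 0.05 and 0 to 5 with 1 mouse left out. Genes called higher there were 156 by edgeR, 486 with DESeq2, 9 with all 12 libraries in 1 fit, 12 at an adjusted p under 0.05 and 0 to 188 with 1 mouse left out. Nlrc5 had -0.28 with limma-voom, which was the only reversal in that comparison. For ISP against control, 1026 genes were called higher, 517 at an adjusted p under 0.05, 71 without ISP 14 and ISP 18, and 299 to 1465 with 1 mouse left out. Members called were 9, 7 with limma-voom, 2 without ISP 14 and ISP 18, and 5 to 10 with 1 mouse left out (5 without ISP 14, 10 without ISP 16). The cause of these changes was not tested. Mean levels moved by a ratio of 0.987 to 1.02 under the other scalings.

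No paired analysis was possible because the groups share no replicate numbers and the mice were not paired. Depth limited the genes below about 1 CPM, as with Nlrc5 in Veh 8 (1 read) and the interferon ligands. Exons of Tapbp overlap the antisense gene Gm19412 over 24.9% of their length and the same-strand gene Zbtb22 over 149 bases. Those of Tap2 overlap Gm15821 over 14.1% and Gm20496 over 4.36% of their length. Those of Psmb8 overlap Gm20496, and Psmb9 and Tap1 overlap each other. The counts of these genes are therefore less certain than those of B2m, of which no 100-base stretch occurs elsewhere. The surgery and treatment of the control mice are not given in the sources used here.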
